A study of Drosophila melanogaster with 15 samples.

Results

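The proteasome subunit genes of Drosophila and their duplicated copies were examined in cultured ovarian somatic cells (OSCs), a fly cell line that corresponds to the follicle cells of the ovary. The genes were taken by symbol: names starting with Prosalpha or Prosbeta, or with Rpn or Rpt followed by a digit. Of the 16727 genes listed with read counts, 47 fitted this rule. They were divided into 32 general subunit genes and 15 paralogs. Paralogs were the symbols with a T or an R after the number (Prosalpha4T1, Rpt3R).

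OSCs had been treated for 48 h with siRNA against l(3)mbt (L(3)mbt KD), against lint-O (Lint-O KD; the gene is listed as CG2662) or against EGFP, which served as control. Poly-A-selected RNA was sequenced from 3 libraries per condition, 9 in all, and the study describes its replicates as biological. L(3)mbt and Lint-O are chromatin proteins that repress genes, including germ line genes, in these cells. The study's 6 ChIP-seq and input samples were not analysed here. All comparisons concern 1 cell line.

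The proteasome is the barrel-shaped protease that degrades ubiquitin-tagged proteins. Its core particle is a stack of alpha rings, which gate the entrance, and beta rings, of which Prosbeta1, Prosbeta2 and Prosbeta5 carry the active sites. A regulatory particle caps the core: its base holds the Rpt ATPases that unfold substrates and the ubiquitin receptors, and its lid holds the deubiquitinase Rpn11. In flies, many subunits have a second gene that is known for expression in the testis, where alternative proteasomes are made during sperm development.

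In OSCs depleted of either protein, the general subunit genes stayed near their control levels, whereas 1 paralog, Prosbeta2R2, was about 4-fold higher in both knockdowns. A further paralog, Rpt4R, rose in L(3)mbt KD, against a control level at the limit of detection. Rpt3R and Rpt6R were already well expressed in control cells. The other 11 paralogs had no more than 3 counts in total over the 9 libraries.

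To show how each measured paralog differs from its general counterpart, 30 bases of coding exon are given from both genes, aligned at a residue needed for activity. For the Prosbeta2 pair, the window holds the codon of the catalytic threonine, which becomes the first residue of the mature subunit (capitals).
Prosbeta2: aagacgggaACCacaatcgttggcatcatc
Prosbeta2R2: actactggcACCactgtggtgggcatcgtg
These windows lie at chr3L:15000246-15000275 on the plus strand and chr3R:5218875-5218904 on the minus strand of Release 6 (dm6), and they differed at 10 bases with the threonine codon unchanged.

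For the ATPase pairs, the window holds the P-loop that binds ATP, with the codon of its lysine in capitals.
Rpt3: ggtccgcccggttgcggcAAGaccatgttg
Rpt3R: ggaccacctggatgtggcAAAaccatgctg
Rpt4: ggacctcctggcaccggcAAGaccctgctg
Rpt4R: ggaccgcctggcaccggaAAAactctcctg
Rpt6: ggacctccaggtacaggaAAGactttgctg
Rpt6R: ggaccgcctggaactgggAAAaccctgtta
They lie at chrX:11126045-11126074 (plus) for Rpt3, chr3R:9755510-9755539 (minus) for Rpt3R, chrX:6290432-6290461 (minus) for Rpt4, chr3L:11942650-11942679 (plus) for Rpt4R, chrX:21316950-21316979 (plus) for Rpt6 and chr3R:30582890-30582919 (minus) for Rpt6R. The windows differed at 7 bases between Rpt3 and Rpt3R, at 5 between Rpt4 and Rpt4R and at 10 between Rpt6 and Rpt6R. In each pair the lysine codon was AAG in the general gene and AAA in the paralog.

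Over whole coding sequences, the paralogs shared 62.0% (Prosbeta4R1) to 78.2% (Rpt6R) of aligned bases with their general counterparts. The longest run of identical exon bases in a pair was 26, between Rpt6R and Rpt6, so reads longer than that could be placed in the paralog or the general gene. One general gene could not be measured. Prosalpha1 had 0 counts in all 9 libraries, as had its neighbour CG30382, a copy that RefSeq names Prosalpha1R. The 735 coding bases of CG30382 are identical to those of Prosalpha1, and the 2 genes share a run of 952 exon bases. Reads from these genes cannot be assigned to either, so the counts of 0 say nothing about expression of the alpha1 subunit.

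Reads counted on genes ranged between 19139572 and 32274601 per library. In the libraries labelled L(3)mbt KD, l(3)mbt was at 72.3 to 79.7 CPM (read counts relative to library size, scaled by TMM), against 123 to 141 CPM in control libraries. In Lint-O KD, CG2662 was at 3.44 to 3.80 CPM, against 21.1 to 21.6 CPM in control. In Lint-O KD, l(3)mbt was at 164 to 188 CPM, above all control libraries (log2 fold change 0.41, adjusted p = 0.000310). The targeted gene was lower in each library of its knockdown than in any control library. The 4 follicle cell markers (tj, Fas3, piwi, fs(1)Yb) summed to 2212 to 2254 CPM in L(3)mbt KD, 2115 to 2221 CPM in Lint-O KD and 2048 to 2230 CPM in control, so the markers of the labelled cell type were present in every library. Most of this sum was piwi. Of the 4, Fas3 rose in L(3)mbt KD, with 29.4, 32.3 and 35.2 CPM against 17.6, 18.5 and 16.3 CPM in control (log2 fold change 0.89, adjusted p = 3.5e-07), while tj, piwi and fs(1)Yb did not pass the threshold in either knockdown. The part of this change in the results was not tested.

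The general subunit genes were among the more highly expressed genes of OSCs. Per kilobase of exon, the 31 measured ones had a median level of 234 CPM in L(3)mbt KD, 235 CPM in Lint-O KD and 241 CPM in control. In the same order of conditions, the median of the 8634 genes that passed the filter on low counts and had a known length was 16.4, 16.8 and 16.3 CPM. The lowest was Rpn1, the large scaffold of the base, at 62.0 ± 1.91 CPM per kilobase in L(3)mbt KD, 63.01 ± 5.04 in Lint-O KD and 61.7 ± 2.62 in control (SD, n = 3). The highest was Prosbeta5, which carries the chymotrypsin-like site, at 456 ± 31.2, 499 ± 23.0 and 497 ± 19.9 CPM per kilobase in L(3)mbt KD, Lint-O KD and control. The highest of the general genes thus exceeded the lowest 8.05-fold in level per length in control cells.

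By part of the particle, the alpha ring genes had the highest median in control cells, 343 CPM per kilobase, with a narrow range between 295 (Prosalpha5) and 418 (Prosalpha6). The beta ring genes had a median of 285, the lid genes 219 and the base genes 183 CPM per kilobase. The same order of parts held in Lint-O KD (335, 281, 205 and 186 CPM per kilobase). In L(3)mbt KD the medians were 341 for the alpha ring, 265 for the beta ring, 197 for the lid and 203 for the base, so that base and lid lay close together. The coefficient of variation among the 31 genes was 36.2% in L(3)mbt KD, 36.9% in Lint-O KD and 35.9% in control.

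**Figure D1:**
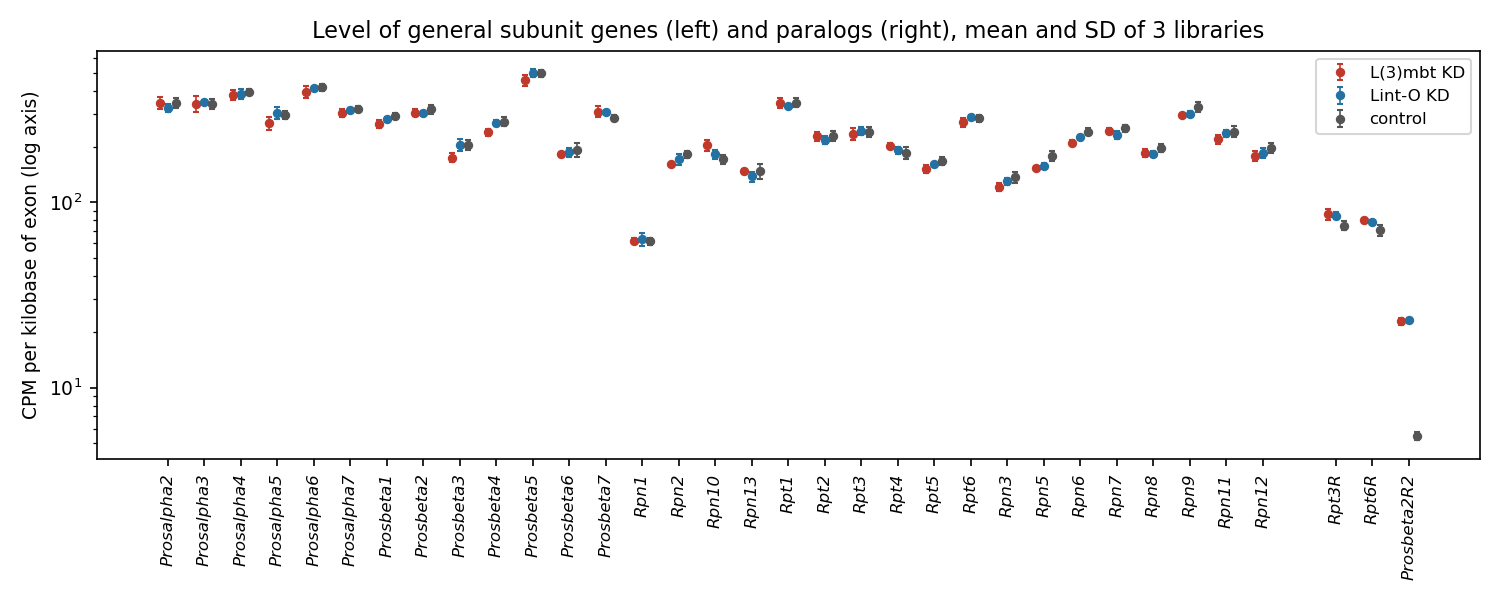
Level of each measured general subunit gene and of 3 paralogs in CPM per kilobase of exon, on a log axis, as the mean and SD of 3 libraries for L(3)mbt KD, Lint-O KD and control. General genes lie between 61.7 (Rpn1) and 499 CPM per kilobase (Prosbeta5), Rpt3R and Rpt6R between 70.8 and 86.1, and Prosbeta2R2 at 22.8 in L(3)mbt KD, 23.1 in Lint-O KD and 5.49 in control. Rpt4R, at 0.355 CPM per kilobase or less, is not drawn.

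Prosbeta2R2, a copy of the beta2 subunit gene that carries the trypsin-like site, lies on chr3R:5217751-5219528 (minus strand) and shares no exon base with another gene. Its level was 29.9, 31.2 and 28.96 CPM in the L(3)mbt KD libraries, against 7.55, 7.35 and 6.80 CPM in the control libraries. In the Lint-O KD libraries it was 30.5, 29.5 and 31.4 CPM, against the same controls. All 6 knockdown libraries lay above all 3 control libraries, with at least 596 counts in each knockdown library and at most 213 in a control library.

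The mean was 30.01 ± 1.12 CPM in L(3)mbt KD, 30.4 ± 0.936 CPM in Lint-O KD and 7.24 ± 0.386 CPM in control (SD, n = 3 each). The gene rose 4.16-fold in L(3)mbt KD (log2 fold change 2.06, standard error 0.08, adjusted p = 1.36e-11 by edgeR's quasi-likelihood test). It rose 4.22-fold in Lint-O KD (log2 fold change 2.08, standard error 0.08, adjusted p = 2.48e-11). Between the knockdowns, L(3)mbt KD minus Lint-O KD was -0.02 on the log2 scale with a 95% confidence interval of -0.17 to 0.12 (adjusted p = 0.841), so a difference beyond that interval was not seen. Both comparisons with control use the same 3 control libraries.

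Prosbeta2, the general gene, was at 320, 300 and 324 CPM in L(3)mbt KD, 311, 304 and 322 CPM in Lint-O KD and 308, 331 and 346 CPM in control. Its libraries overlapped between conditions, and its log2 fold change was -0.06 in L(3)mbt KD (adjusted p = 0.381) and -0.07 in Lint-O KD (adjusted p = 0.336). Per kilobase, Prosbeta2R2 stood at 7.49 ± 0.599% of Prosbeta2 in L(3)mbt KD, 7.65 ± 0.0387% in Lint-O KD and 1.74 ± 0.191% in control. The paralog therefore remained the minor copy in every library, although all 6 knockdown libraries had a higher ratio than all 3 control libraries. Prosbeta2R1, the other copy of Prosbeta2, had 3 counts over all 9 libraries.

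Rpt4R is the copy of the base ATPase gene Rpt4 and lies on chr3L:11941912-11943485 (plus strand). It had 14, 10 and 18 counts in the L(3)mbt KD libraries, against 2, 0 and 1 counts in the control libraries. The L(3)mbt KD mean of 0.532 ± 0.0911 CPM (SD, n = 3) was 4.22 times the level of 3 counts per control library, 0.126 CPM on average. This ratio leaves out the counting error of the L(3)mbt KD libraries. In edgeR's fit the log2 fold change was 3.57 (standard error 0.68, adjusted p = 0.000527), a size that depends on how counts of 0 are treated and is no bound. Rpt4R passed the filter on low counts only through the L(3)mbt KD libraries, the group where it is high, so this p-value is no independent support.

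In Lint-O KD, Rpt4R had 5, 1 and 1 counts, which overlapped with the control libraries (adjusted p = 0.338). Set directly against each other, L(3)mbt KD exceeded Lint-O KD by 2.28 on the log2 scale (standard error 0.58, 95% confidence interval 1.05 to 3.52). The adjusted p of this difference was 0.010005, just above the threshold of 0.01, and the gene is not called. Rpt4, the general gene, averaged 296 ± 10.1 CPM in L(3)mbt KD, 279 ± 11.6 CPM in Lint-O KD and 271 ± 20.001 CPM in control. Per kilobase, Rpt4R reached 0.175% of Rpt4 in L(3)mbt KD, 0.0358% in Lint-O KD and 0.0153% in control.

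**Figure D2:**
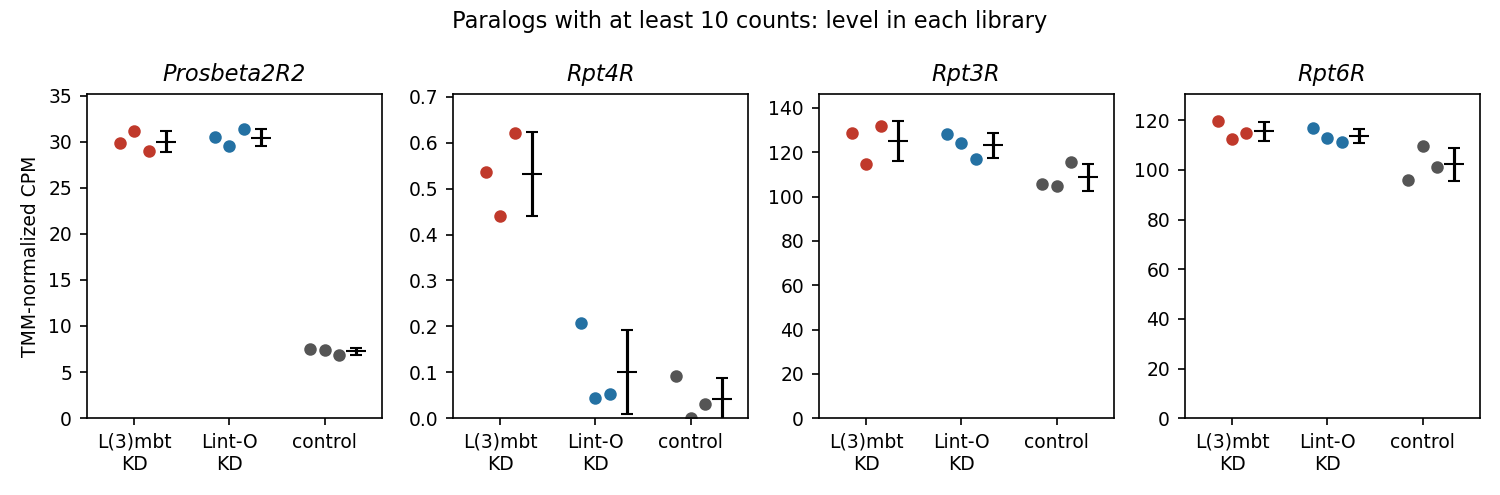
Level of the 4 paralogs with at least 10 counts over the 9 libraries, in TMM-scaled CPM; points are the 3 libraries of L(3)mbt KD, Lint-O KD and control, and bars give the mean and SD. Prosbeta2R2 is near 30 CPM in both knockdowns against 7.24 CPM in control, Rpt4R stands above control in L(3)mbt KD and overlaps with it in Lint-O KD, and Rpt3R and Rpt6R lie above 96 CPM in every library.

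Rpt3R and Rpt6R are copies of the base ATPase genes Rpt3 and Rpt6, on chr3R:9754735-9756510 and chr3R:30582198-30583697 (both minus strand). For these 2 genes the data went against a label of testis-only expression. Rpt3R had 129, 115 and 132 CPM in L(3)mbt KD, 128, 124 and 117 CPM in Lint-O KD and 106, 105 and 116 CPM in control. Rpt6R had 120, 112 and 115 CPM in L(3)mbt KD, 117, 113 and 111 CPM in Lint-O KD and 96.1, 109 and 101 CPM in control. Percentiles of level per length in control cells were taken over the 8634 genes that passed the filter on low counts and had a known length. Rpt3R lay at 86.3 and Rpt6R at 85.4, both above more than 85% of these genes, whereas Prosbeta2R2 lay at 29.5.

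Neither gene passed the threshold in either knockdown. Rpt3R differed from control by 0.20 (standard error 0.06, adjusted p = 0.0173) in L(3)mbt KD and by 0.18 (adjusted p = 0.0436) in Lint-O KD on the log2 scale. Rpt6R differed by 0.18 (standard error 0.06, adjusted p = 0.0187) in L(3)mbt KD and by 0.15 (adjusted p = 0.0518) in Lint-O KD. The 3 L(3)mbt KD libraries of Rpt6R lay above all control libraries, whereas those of Rpt3R overlapped with them. In Lint-O KD, the libraries of both genes lay above all control libraries. With libraries scaled by their totals instead of TMM, both genes passed in L(3)mbt KD (adjusted p = 0.00399 for Rpt3R and 0.00519 for Rpt6R). They also passed there when only genes with at least 10 counts in every library were tested (0.00919 and 0.00884). Rpt3R also passed without L(3)mbt KD replicate 2 (adjusted p = 0.00465). Of 19 alternatives in L(3)mbt KD against control, 15 left Rpt3R and 16 left Rpt6R outside the threshold. Their adjusted p by edgeR reached 0.108 for Rpt3R and 0.162 for Rpt6R.

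Within each library, Rpt3R stood at 36.8 ± 1.15% of Rpt3 per kilobase in L(3)mbt KD, 35.0 ± 3.13% in Lint-O KD and 31.2 ± 0.839% in control. Rpt6R stood at 29.6 ± 1.75% of Rpt6 in L(3)mbt KD, 27.3 ± 0.805% in Lint-O KD and 24.9 ± 1.69% in control. The L(3)mbt KD ratios lay above all control ratios for all 4 pairs, and the Lint-O KD ratios did so for Prosbeta2R2 alone. An exact permutation test of 3 libraries against 3 (two-sided) cannot go below p = 0.1, the value reached in these 5 comparisons and by Rpt4R in L(3)mbt KD against Lint-O KD. The adjusted value over all 12 such comparisons was 0.2 in each, so the ratios alone cannot pass a threshold of 0.05 in this design.

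**Figure D3:**
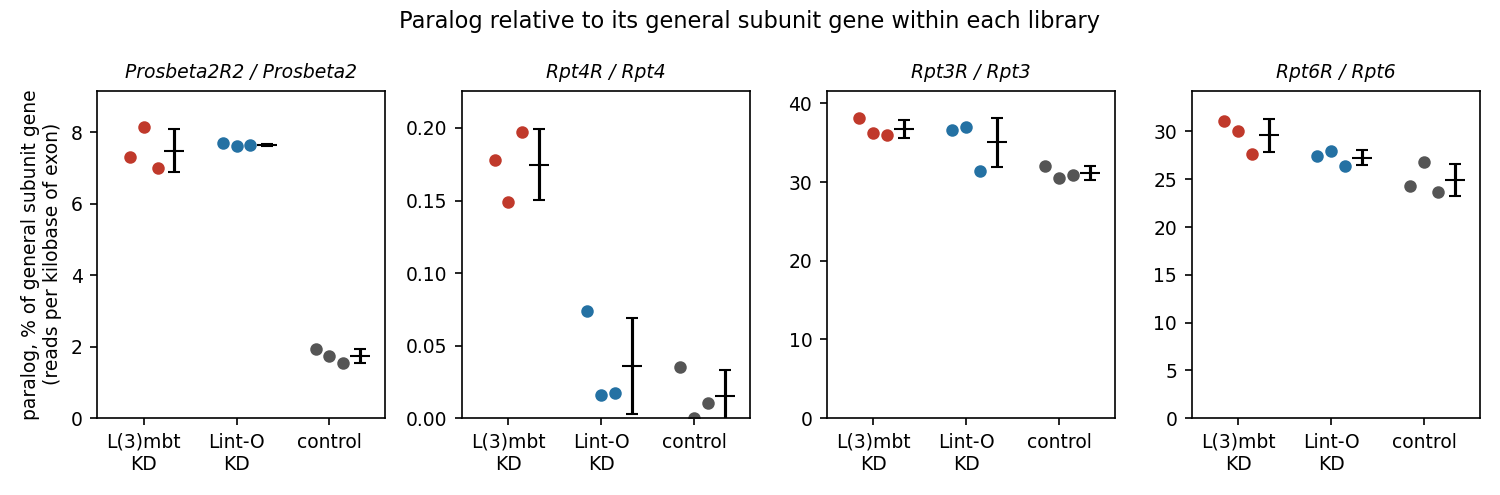
Paralog level as a percentage of its general subunit gene, both per kilobase of exon, in each of 3 libraries of L(3)mbt KD, Lint-O KD and control, with the mean and SD. The Prosbeta2R2 to Prosbeta2 ratio is 7.49% in L(3)mbt KD and 7.65% in Lint-O KD against 1.74% in control; for Rpt3R and Rpt6R the Lint-O KD points overlap with control.

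Of the remaining 11 paralogs, 8 had no read in any of the 9 libraries: Prosalpha3T, Prosalpha4T1, Prosalpha6T, Prosbeta4R2, Prosbeta5R1, Prosbeta5R2, Rpn12R and Rpn13R. Prosalpha4T2 had 1 count, and Prosbeta2R1 and Prosbeta4R1 had 3 counts each, over all libraries. At these depths 0 reads allow up to 3 counts, or 0.0958 to 0.158 CPM depending on the library. These copies include every alpha ring and lid copy among the 15 paralogs (CG30382 is not one of them) and both copies of Prosbeta5. None exceeded 3 counts in any knockdown or control library, so their expression was not detectable above that floor. The 3 counts of Prosbeta4R1 all came from L(3)mbt KD replicate 2.

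Summed over all members, the paralogs amounted to 2.50 ± 0.0778% of the general subunit genes per kilobase in L(3)mbt KD, 2.41 ± 0.112% in Lint-O KD and 1.90 ± 0.0451% in control (SD, n = 3 each). Paralog reads summed to 271 ± 10.9 CPM in L(3)mbt KD, 267 ± 8.06 CPM in Lint-O KD and 218 ± 7.92 CPM in control. General subunit reads summed to 9961 ± 474, 10182 ± 270 and 10485 ± 504 CPM in L(3)mbt KD, Lint-O KD and control, and these sums overlapped between conditions. No p-value is given for the sums, which run over a chosen list.

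Among the general subunit genes, 1 was called higher and 2 were called lower in L(3)mbt KD at a false discovery rate (FDR) of 0.01. In this contrast 37.0% of the 8726 genes tested were called, 22.1% up and 14.9% down. The median log2 fold change of the 31 general genes was -0.08, against -0.02 for all genes, and the range ran between -0.23 and 0.25. Of the 31, 27 had values below 0, against 52.3% of all genes. At an unadjusted p under 0.05 there were 2 up and 11 down among the 31, against 29.1% up and 27.1% down among all genes. The share up was thus below that of all genes, and the share down was somewhat above it. The 3 knockdown libraries did not overlap with the 3 control libraries in 35.5% of general genes (11 of 31), against 56.9% of all genes.

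Rpn10, a ubiquitin receptor of the base, was the gene called higher. It had 282, 276 and 311 CPM in L(3)mbt KD, against 230, 242 and 258 CPM in control, so that the libraries did not overlap. Its log2 fold change was 0.25 (standard error 0.06, adjusted p = 0.00406). In Lint-O KD it had 251, 249 and 274 CPM (0.08 against control, adjusted p = 0.334). The call in L(3)mbt KD did not hold without control replicate 1 (adjusted p = 0.0360), control replicate 2 (0.0211) or L(3)mbt KD replicate 3 (0.0320), nor with the share of reads assigned to no gene as a covariate (0.0345).

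Rpn5 and Rpn6, scaffold subunits of the lid, were the genes called lower. Rpn5 had 293, 296 and 285 CPM in L(3)mbt KD, against 317, 355 and 346 CPM in control. Its log2 fold change was -0.22 (standard error 0.05, adjusted p = 0.00397). In Lint-O KD, Rpn5 had 301, 309 and 285 CPM, also below all control libraries, with -0.19 (adjusted p = 0.0173). Rpn6 had 412, 393 and 421 CPM in L(3)mbt KD, against 449, 467 and 490 CPM in control. Its log2 fold change was -0.20 (standard error 0.05, adjusted p = 0.00562), while in Lint-O KD it was -0.11 (adjusted p = 0.133). Both calls in L(3)mbt KD were lost when libraries were scaled by their totals (adjusted p = 0.0273 for Rpn5 and 0.0286 for Rpn6). They were also lost without L(3)mbt KD replicate 1 (0.0151 and 0.0190), for Rpn5 without control replicate 2 (0.0125), and for Rpn6 without L(3)mbt KD replicate 2 (0.0279).

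The number of general genes called lower depended on such choices. It was 7 without control replicate 1 or without L(3)mbt KD replicate 3, 0 without L(3)mbt KD replicate 1, and 5 with DESeq2 in place of edgeR.

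The catalytic genes of the beta ring passed the threshold in neither knockdown. Prosbeta1, with the caspase-like site, had 226, 214 and 239 CPM in L(3)mbt KD, against 247, 243 and 261 CPM in control (log2 fold change -0.15, adjusted p = 0.0345). Prosbeta5 had 522, 482 and 553 CPM in L(3)mbt KD, against 553, 552 and 592 CPM in control (-0.12, adjusted p = 0.0990). In Lint-O KD the log2 fold changes were -0.07 for Prosbeta1 (adjusted p = 0.375) and 0.01 for Prosbeta5 (adjusted p = 0.932). Prosbeta1 was below every control library in L(3)mbt KD, and it passed without L(3)mbt KD replicate 3 (adjusted p = 0.00649). Just outside the threshold in L(3)mbt KD, and named for that after their values were seen, were Prosbeta3 (-0.23, adjusted p = 0.0101) and Prosbeta4 (-0.19, adjusted p = 0.0118), ring subunits without an active site.

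By part, the median log2 fold change in L(3)mbt KD was -0.07 for the 6 alpha ring genes, -0.12 for the 7 beta ring genes, -0.01 for the 10 base genes and -0.14 for the 8 lid genes. In L(3)mbt KD, values were below 0 for all 8 lid genes, all 6 alpha ring genes, 6 of 7 beta ring genes and 7 of 10 base genes. In Lint-O KD they were below 0 for all 8 lid genes, whose median was -0.11. There the other parts had 4 of 6 alpha ring, 5 of 7 beta ring and 5 of 10 base genes below 0. Of all genes, 52.3% were below 0 in L(3)mbt KD and 48.0% in Lint-O KD. The 2 comparisons share the control libraries. With libraries scaled by totals, the median of all 31 general genes was -0.03 in L(3)mbt KD and -0.01 in Lint-O KD, while that of all genes was 0.04 in both.

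In Lint-O KD, 0 general subunit genes were called in either direction by edgeR, against 23.0% of all genes tested (16.1% up and 6.85% down). At an unadjusted p under 0.05 there were 0 up and 2 down, against 26.0% up and 18.3% down of all genes, and DESeq2 called 0 up and 1 down, which was Rpn5. The median log2 fold change was -0.04, against 0.01 for all genes, and the values ran between -0.19 and 0.11. The 95% confidence intervals of the 31 genes lay within -0.30 to 0.23. Libraries did not overlap in 3 of 31 (9.68%), against 47.1% of all genes.

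Between the knockdowns, 0 general genes were called by edgeR in L(3)mbt KD against Lint-O KD, where 14.0% of all genes were called (8.42% up and 5.60% down). At an unadjusted p under 0.05 there were 1 up and 4 down, against 19.4% up and 18.6% down of all genes. The values ran between -0.22 (Prosbeta3) and 0.17 (Rpn10), with a median of -0.04. Libraries of the knockdowns did not overlap in 5 of 31 (16.1%), against 42.4% of all genes. Of the 4 tested paralogs, 0 were called in this comparison (1 at an unadjusted p under 0.05, Rpt4R). Of these 4, 2 were called up in L(3)mbt KD, where 22.1% of all genes were, and 1 in Lint-O KD, where 16.1% were, but a paralog expressed only in a knockdown enters the test through that knockdown.

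**Figure D4:**
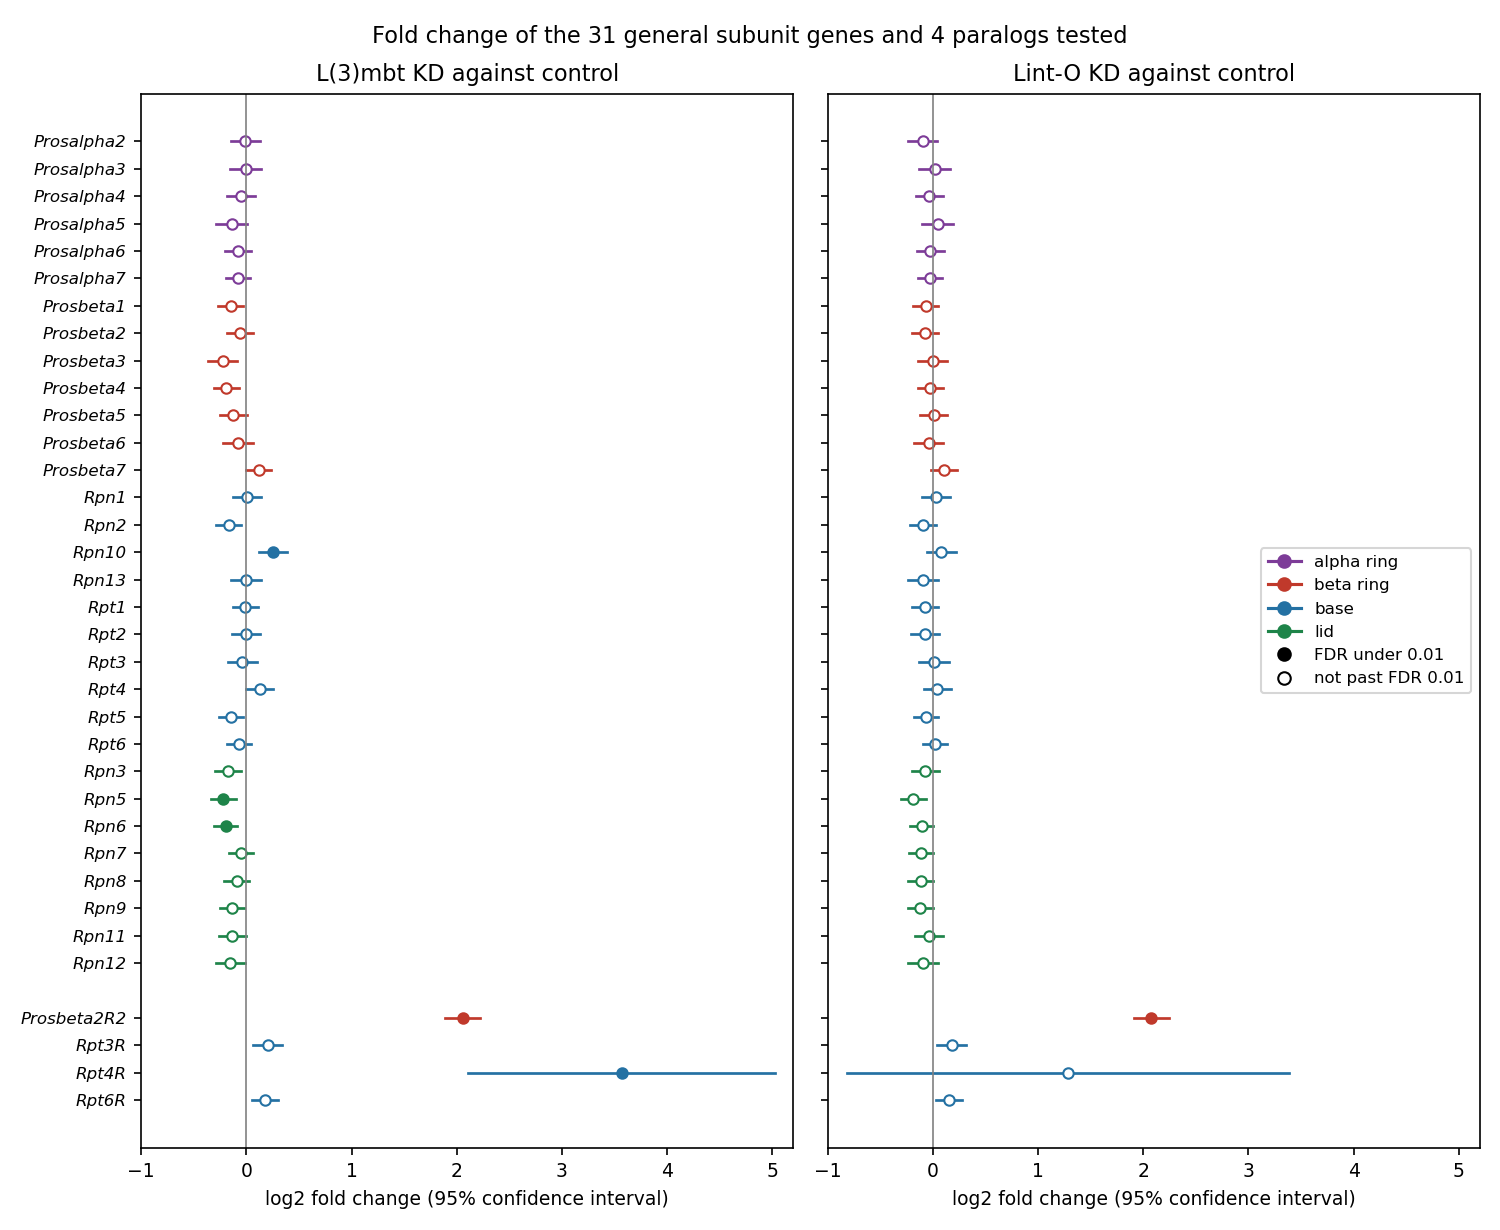
Log2 fold change with its 95% confidence interval for the 31 general subunit genes and 4 paralogs tested, in L(3)mbt KD against control (left) and Lint-O KD against control (right), coloured by part of the particle; filled points passed an FDR of 0.01. General genes lie between -0.23 and 0.25 in L(3)mbt KD and between -0.19 and 0.11 in Lint-O KD, and Prosbeta2R2 lies at 2.06 and 2.08 in these contrasts.

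Genes that work with the proteasome were followed in a list of 28 symbols, of which 26 could be tested. In L(3)mbt KD 1 rose (3.85%) and 6 fell (23.1%), with a median of -0.13, against 22.1% up and 14.9% down of all genes. In Lint-O KD 1 rose and 2 fell (7.69%), with a median of -0.04, against 16.1% up and 6.85% down of all genes, so that the share that fell was near the background. Pomp, the chaperone of core particle assembly, was the gene that rose in both, at 213, 206 and 230 CPM in L(3)mbt KD and 221, 209 and 211 CPM in Lint-O KD, against 178, 189 and 183 CPM in control. Its log2 fold change was 0.24 in L(3)mbt KD (adjusted p = 0.00211) and 0.22 in Lint-O KD (adjusted p = 0.00547), and no knockdown library overlapped with control.

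The genes that fell in L(3)mbt KD were of several kinds. REG, the activator that opens the core without ubiquitin, changed by -0.25 (adjusted p = 0.00607) and CG8858, from the list of assembly factors and activators, by -0.34 (adjusted p = 0.000155). Ubi-p63E and RpL40, which encode ubiquitin, changed by -0.34 (adjusted p = 0.00396) and -0.23 (adjusted p = 0.00841). Ufd1-like, a cofactor of the segregase TER94, changed by -0.26 (adjusted p = 0.00136), and ref(2)P, a receptor that carries ubiquitinated cargo to autophagy, by -0.24 (adjusted p = 0.00515).

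In Lint-O KD the genes that fell were ref(2)P again (-0.24, adjusted p = 0.00816) and maf-S (-0.27, adjusted p = 0.00550). Maf-S is the small Maf partner of Cnc, the Nrf-type activator of proteasome genes, and cnc itself was at -0.16 in L(3)mbt KD (adjusted p = 0.0512) and -0.04 in Lint-O KD (adjusted p = 0.673). Between the knockdowns, CG8858, Ubi-p63E and Ufd1-like were lower in L(3)mbt KD (3 of 26, against 5.60% of all genes), with Ubi-p63E the farthest apart at -0.62 (adjusted p = 0.000105).

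Promoters of general genes and paralogs were also compared for a pair of sequence elements known from proteasome and housekeeping genes. The DRE, the palindrome TATCGATA bound by the factor Dref, occurred between 250 bases before and 50 bases after the annotated start in 12 of 32 general genes (37.5%), against 0 of 15 paralogs and 9.37% of 13944 protein-coding genes. Examples from each kind of subunit, with the element in capitals, are given on the strand of the gene.
Prosalpha6: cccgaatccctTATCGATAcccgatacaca
Prosbeta2: ccatgaatataTATCGATAcaatatcgatt
Rpn3: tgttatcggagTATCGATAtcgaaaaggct
Rpt5: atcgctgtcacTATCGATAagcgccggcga
These lie at chr2L:10221324-10221353, chr3L:14999930-14999959, chr2L:19051582-19051611 and chr3R:23752819-23752848 (all plus strand, Release 6).

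The other general genes with a DRE were Prosalpha3, Prosalpha5, Prosbeta1, Prosbeta6, Rpn7, Rpn9, Rpn12 and Rpn13. None of the general genes called in L(3)mbt KD (Rpn10, Rpn5 and Rpn6) held the element in this window, nor did most general genes (12 of 32 held it). A link between the element and the response to the knockdowns was not tested. The core of the antioxidant response element, TGACNNNGC on either strand, occurred in 5 of 32 general genes (15.6%: Prosalpha2, Prosbeta3, Rpn1, Rpn7 and Rpt6), 1 of 15 paralogs (Prosbeta4R2) and 8.63% of all promoters. Rpn7 held both elements, and they did not overlap. A match shows only that the letters are present.

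Some markers of other cell types moved with the knockdowns. The 6 female germ line markers (vas, nos, osk, bam, bgcn, orb) summed to 425 to 485 CPM in L(3)mbt KD and 216 to 223 CPM in Lint-O KD, against 16.7 to 17.6 CPM in control. All but osk, 5 of 6, rose in each, where 22.1% of all genes rose in L(3)mbt KD and 16.1% in Lint-O KD. In control, nos reached at most 0.319 CPM and orb 0.511 CPM, so these markers entered the test through the knockdown libraries. Of 16 testis markers, 14 were listed and 5 tested, and 3 of the 5 rose in both knockdowns (topi, mia and bol), set against the same shares of all genes. The 14 summed to 64.2 to 69.0 CPM in L(3)mbt KD and 63.4 to 67.9 CPM in Lint-O KD, against 37.8 to 39.1 CPM in control. Of these, 7 had at most 3 counts in every library, among them the spermatid genes dj, Mst87F and Mst98Ca, with comr, sa, nht, dj and Mst98Ca at 0. The 3 blood cell markers summed to 11.5 to 12.8 CPM in L(3)mbt KD, 11.3 to 15.4 CPM in Lint-O KD and 14.5 to 17.3 CPM in control. Of the 2 tested, srp was called lower in L(3)mbt KD (log2 fold change -0.44, adjusted p = 0.00540), where 14.9% of all genes fell. Neither was called in Lint-O KD. The part of any of these in the levels of Prosbeta2R2 and Rpt4R was not tested, and fewer expressing cells and less RNA per cell cannot be told apart in bulk RNA.

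Reads assigned to no gene made up 2.93% to 4.14% of the reads in L(3)mbt KD, 4.43% to 7.38% in Lint-O KD and 2.76% to 8.45% in control, where replicate 3 had the lowest share. As a covariate, this share left the calls of Prosbeta2R2 and Rpt4R in place. Of the 47 members, 15 share between 1 and 182 exon bases with another gene, in 14 of them on the opposite strand, including Rpt6 (182 bases with CG1801), Rpt4 (93 with wuho), Prosbeta2 (82 with Reck) and Rpt3R (20 with Alg12). Reads in these bases may belong to the neighbour, since the strand setting of the counting is not given in the sources used here.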

How the data were processed

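RNA-seq of 9 OSC libraries was analysed, 3 per condition, grouped by their labels. The authors deposited raw counts of reads per gene, without normalization. The reads had been mapped to dm6 with HISAT2 after removal of rRNA reads, and the submitters' processing notes also name HTSeq. The annotation and strand setting of the counting are not given in the sources used here. Rows of reads without a gene (no feature, 2.76% to 8.45%; ambiguous, 1.47% to 1.61%) were left out of library sizes and tests.

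Differential expression was tested with edgeR 4.0.16 in R 4.3.3 (filterByExpr, TMM, glmQLFit and glmQLFTest on all 9 libraries without a block). P-values were adjusted by the Benjamini-Hochberg method over the 8726 genes tested, with an FDR threshold of 0.01. Of the 47 members, 35 passed the filter: 31 general genes and 4 paralogs. On data simulated for L(3)mbt KD against control, with 200 of 8726 genes changed by a log2 fold change of 1, edgeR recovered 88% with 5 false calls. The simulation changed far fewer genes than were called in the data, and by more than any general subunit gene moved. Its rates therefore do not carry over to the calls of general genes. P-values and confidence intervals of fold changes come from the same fit and include the spread between these libraries, which the study calls biological replicates. Floors of 3 counts cover counting error only. No libraries of a condition were duplicates.

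Exon lengths, coordinates and sequences came from RefSeq's annotation of Release 6, to which 16508 of the listed genes were matched (Biopython 1.88). Named were the paralogs with at least 10 counts in total, the catalytic beta genes, and up to 3 called general genes per direction and knockdown. The members and lists were chosen with earlier results of these data known. The alternatives were DESeq2 1.42.0, other scalings, filters, samples and covariates, a block for the replicate number, a threshold of 0.05, and each library left out in turn.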

Additional observations from a re-analysis of the deposited data

How the results depend on the processing

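The increase of Prosbeta2R2 held under all 19 alternatives, with a log2 fold change between 1.98 and 2.11 in L(3)mbt KD and between 2.00 and 2.11 in Lint-O KD. That of Rpt4R in L(3)mbt KD held under all 18 in which it was tested (3.12 to 4.49). Rpt4R was not tested with at least 10 counts in every library. In the main fit it passed the filter only through L(3)mbt KD, so these calls are no independent support. The calls of general genes were less stable. In L(3)mbt KD against control, the count called lower was 2, and it became 5 with DESeq2, 0 with library totals, 6 with no filter on low counts, 0 with at least 10 counts in every library, 1 with only the libraries compared, 6 with the share of unassigned reads as a covariate, 8 at an FDR of 0.05 and 4 with a robust estimate of the spread, an alternative chosen after seeing the data. The single gene called higher became 0 with that covariate. Leaving out 1 library gave 0 to 1 called higher and 0 to 7 called lower. Paralogs called higher went to 4 with library totals and to 4 at an FDR of 0.05. The cause of these shifts was not tested.

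In Lint-O KD against control, general genes called lower numbered 1 with DESeq2, with no filter and at an FDR of 0.05, and 0 to 1 with 1 library left out, and paralogs called higher numbered 2 at an FDR of 0.05. In L(3)mbt KD against Lint-O KD, general genes called lower numbered 1 with no filter or with the covariate, 2 at an FDR of 0.05 and 0 to 1 with 1 library left out. Paralogs called higher there (Rpt4R) numbered 1 with DESeq2's size factors, with only the libraries compared, with the robust estimate and at an FDR of 0.05, and 0 to 1 with 1 library left out.

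Deviations of same-numbered replicates from their condition means had a mean correlation of -0.153 for L(3)mbt KD and control, 0.0931 for Lint-O KD and control and 0.0194 for the knockdowns. With 3 libraries per condition and no comparison with differently numbered pairs, these values cannot tell whether the numbers pair the libraries. With the replicate block, 6 general genes were called lower in L(3)mbt KD against control and 2 in L(3)mbt KD against Lint-O KD.

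Values near 0 that were not called changed sign. Prosbeta5 in Lint-O KD against control was -0.0046 with DESeq2, -0.0022 with DESeq2's size factors and -0.018 with no filter, and -0.029 to 0.045 with 1 library left out. In L(3)mbt KD against Lint-O KD, Prosbeta2R2 was 0.0015 with library totals and 0.0017 with the covariate (-0.0500 to 0.0017 with 1 library left out), Rpt3R was -0.0013 with the covariate (-0.019 to 0.0800), Prosbeta2 was -0.039 with the covariate (-0.011 to 0.046), and Rpt6R was -0.0029 to 0.044 with 1 library left out.

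The summed paralogs amounted to 2.72% of general genes in L(3)mbt KD, 2.63% in Lint-O KD and 2.08% in control with counts in place of reads per kilobase, and to 1.37%, 1.31% and 0.960% in the same order without Rpt3R, which gives most reads. Depth limits the 11 paralogs at or near 0 and Rpt4R, whose values rest on at most 18 counts per library.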
